A study of Homo sapiens with 8 samples.

Results

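Interferon-stimulated genes are the genes that a cell switches on after it has met interferon. Here 46 of them were taken by symbol from a table of 17166 genes: sensors, transcription factors, the ISG15 system, the IFIT, OAS and IFITM families, and other antiviral genes. A mean of at least 1 FPKM (fragments per transcript length and library size) over all libraries was needed for a test, and 38 of the 46 genes had it, as did 11712 genes of the whole table.

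The cells were HCT116, a human colorectal cancer line, carrying 1 of 2 doxycycline-inducible short hairpin RNAs against HOXB8, a homeobox transcription factor. Of these cells 4 groups of 2 polyA RNA-seq libraries each were compared: the sh1 line with and without doxycycline (dox, no-dox), and the sh2 line with and without it. The dose was 1 ug/ml for 72 hours. All groups carried a hairpin construct, doxycycline was never given to cells lacking a hairpin, and the effects of the drug, of a hairpin RNA and of lower HOXB8 cannot be told apart. The deposited table names the second hairpin sh3, and its columns were matched to sh2 by elimination. A library is named by line, state and repeat, as in sh1 dox repeat 2, and 4 values in a row give sh1 repeats 1 and 2 before sh2 repeats 1 and 2.

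Type I and type III interferons bind receptors on the cell surface and activate the kinases JAK1 and TYK2, which phosphorylate STAT proteins, STAT2 among them. STAT2 and IRF9 take part in a complex that binds the interferon-stimulated response element (ISRE) in promoters. The cytosolic sensors DDX58 (RIG-I) and IFIH1 (MDA5) recognise viral or misplaced double-stranded RNA and lead to interferon production. Many interferon-stimulated genes are also transcribed at a low level without interferon, and some respond directly to IRF factors.

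The ISRE core was searched as GAAA, any 2 bases and GAAA again, on both strands, in RefSeq promoter windows of GRCh38.p14, which run from 250 bases before to 50 bases after a gene's start. A window was found for 39 of the 46 genes. The ISRE core occurred in at least 1 window of 25 of them (64.1%), against 4.1% of the 13675 genes of the table with a window. The promoters of 6 genes that hold a match are shown as examples. They are 4 genes that rose with doxycycline (ISG15, LGALS3BP, IFIT1, DDX60), the gene that fell (IFI27) and a gene with a change near 0 (OAS3). UBE2L6, IRF1, IRF9, STAT2 and IFI35 rose too, have no match in their windows and are not shown. Each line gives the 150 bases before the start, 5′ to 3′ on the gene's strand, with ISRE core matches in capitals. Where capitals run on for more than 10 bases, 2 matches overlap.
ISG15: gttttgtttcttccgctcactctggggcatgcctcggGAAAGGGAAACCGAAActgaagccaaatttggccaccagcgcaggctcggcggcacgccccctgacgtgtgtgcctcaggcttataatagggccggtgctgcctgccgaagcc
LGALS3BP: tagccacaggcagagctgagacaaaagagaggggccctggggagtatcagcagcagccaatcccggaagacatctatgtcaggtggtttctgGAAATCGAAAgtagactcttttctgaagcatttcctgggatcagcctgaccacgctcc
IFIT1: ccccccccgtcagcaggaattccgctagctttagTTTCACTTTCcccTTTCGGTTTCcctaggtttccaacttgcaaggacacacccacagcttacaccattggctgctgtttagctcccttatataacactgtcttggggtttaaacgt
DDX60: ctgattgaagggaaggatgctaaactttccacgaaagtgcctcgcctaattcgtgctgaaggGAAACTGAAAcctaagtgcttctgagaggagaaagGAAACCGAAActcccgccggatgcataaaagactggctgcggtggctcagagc
IFI27: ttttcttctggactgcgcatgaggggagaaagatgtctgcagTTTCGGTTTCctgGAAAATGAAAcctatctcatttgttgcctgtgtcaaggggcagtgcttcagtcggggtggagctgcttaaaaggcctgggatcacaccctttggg
OAS3: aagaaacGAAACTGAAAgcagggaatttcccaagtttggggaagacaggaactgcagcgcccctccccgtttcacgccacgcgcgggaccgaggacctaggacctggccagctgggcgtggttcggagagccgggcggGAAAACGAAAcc
The windows lie at chr1:1013347-1013496 (+ strand) for ISG15, chr17:78979924-78980073 (- strand) for LGALS3BP and chr10:89392473-89392622 (+ strand) for IFIT1. Those of DDX60, IFI27 and OAS3 lie at chr4:168318753-168318902 (- strand), chr14:94110586-94110735 (+ strand) and chr12:112938324-112938473 (+ strand). LGALS3BP has 1 match, which begins 58 bases before the start, and the other 5 promoters have 2 each.

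HOXB8 (Entrez identifier 3218) was read first as a check of the labels. It had 6.54 and 5.74 FPKM in sh1 dox libraries against 20.8 and 20.4 FPKM in sh1 no-dox libraries, and 7.39 and 6.41 FPKM in sh2 dox libraries against 17.3 and 18.4 FPKM in sh2 no-dox libraries. The library columns summed to between 440063 and 446889 FPKM, and libraries of a group correlated at r = 0.998 to 0.999 across genes on log2(FPKM + 1). The number of reads behind the values is unknown. Of 8 epithelial markers EPCAM, CDH1, KRT8, KRT18, KRT19 and CDX2 passed 1 FPKM, VIL1 did not, and CDX1 was not analysed here. Averaged over both lines, EPCAM (log2 change 0.13) and CDH1 (0.24) rose with doxycycline and KRT8 (-0.24) and KRT18 (-0.29) fell. Over all tested genes 10.1% were called higher and 6.2% lower, and nothing is read from 6 markers. In the sh1 line limma called 2 of the 6 higher and 2 lower, against 3.71% and 2.56% of all tested genes. In the sh2 line it called 1 higher and 0 lower, against 1.38% and 1.15%. Of 7 immune cell markers, all in the table, 3 were tested and 0 called by limma (1 at an unadjusted p under 0.05). Their summed level ran from 14.1 to 15.1 FPKM in dox libraries and from 12.1 to 15.1 FPKM in no-dox libraries, and of these PTPRC, at 1.31, 1.54, 1.64 and 1.35 FPKM in dox libraries against 1.23, 1.13, 1.16 and 1.09 FPKM in no-dox libraries, did not overlap (limma adjusted p = 0.0912). CD3E, ITGAM and CD14 averaged under 1 FPKM, and their part in the results was not tested. Of 7 fibroblast and endothelial markers 5 were in the table, summing to 6.7 to 8.73 FPKM in dox libraries and 6.95 to 8.37 FPKM in no-dox libraries. Nearly all of that sum was COL1A1, while COL1A2 and COL3A1 read at most 0.01 FPKM.

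The interferon-stimulated genes were present in these cells at very unequal levels before any drug. In FPKM, a scale per transcript length, the highest was IFITM3 with 358 ± 17.5 FPKM in no-dox libraries (SD, n = 4), followed by LGALS3BP with 179 ± 6.35, IFITM2 with 87.6 ± 3.63, ISG15 with 73.5 ± 1.99, ADAR with 66.7 ± 1.02 and TRIM25 with 47 ± 2.37 FPKM. All others averaged under 20 FPKM over the 8 libraries. Together the 46 genes took 0.242% to 0.254% of the summed FPKM of dox libraries and 0.216% to 0.228% of that of no-dox libraries, with no overlap between the states. The highest genes carry most of this gap and it does not describe the 46 genes alike. In dox libraries IFITM3, LGALS3BP and ISG15 averaged 390, 223 and 92.3 FPKM. The filter was missed by 8 genes: OAS1, OAS2, MX1, IFI44, IFI44L, EPSTI1, RSAD2 and CMPK2. MX1, a GTPase that blocks influenza virus, read 0.18 to 0.35 FPKM in dox libraries and 0.18 to 0.27 FPKM in no-dox libraries. IFI44L read 0 to 0.01 FPKM in dox libraries and 0.01 to 0.03 FPKM in no-dox libraries. EPSTI1 read 0.1 to 0.15 FPKM in dox libraries and 0.05 to 0.13 FPKM in no-dox libraries, RSAD2 (viperin) 0.3 to 0.45 against 0.23 to 0.42 FPKM, and its neighbour CMPK2 0.35 to 0.54 against 0.42 to 0.49 FPKM. Just inside the filter were IFI27 (mean of 1.21 FPKM over the 8 libraries), IFIT2 (1.28), XAF1 (1.4), IFIT1 (1.4), HERC6 (1.71), SAMD9 (1.72) and IFIT3 (1.93), and just outside it IFI44 (0.573), CMPK2 (0.465) and RSAD2 (0.35).

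**Figure D1:**
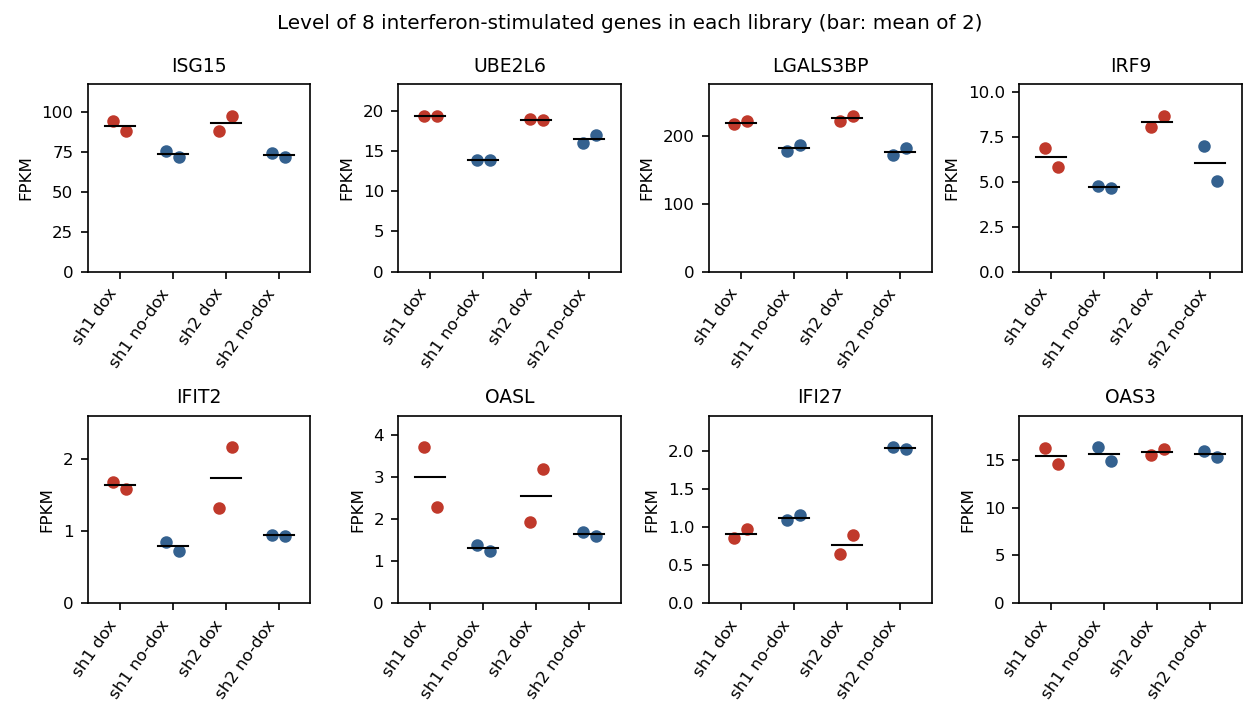
FPKM of 8 interferon-stimulated genes in each library, with dox libraries in red, no-dox libraries in blue and a bar at the mean of the 2 libraries of a group. ISG15, UBE2L6, LGALS3BP, IFIT2 and OASL were higher in each dox library than in any no-dox library, IRF9 was higher within each line, IFI27 was lower in each dox library, and the OAS3 libraries overlapped between 14.5 and 16.3 FPKM.

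Averaged over both lines, 17 of the 38 tested genes rose with doxycycline, 1 fell and 20 did not pass. The test was limma on log2(FPKM + 1) over all 8 libraries, with an adjusted p under 0.05 over the 11712 genes. Of all tested genes 10.1% were called higher and 6.2% lower. Among the 18 called genes IFIT2 passed the filter only through its dox libraries and IFI27 only through its sh2 no-dox libraries, so their calls rest partly on how genes were let in. The median log2 change was 0.14 over the 38 genes and 0.02 over all genes. The rises were of modest size, with called changes between 0.12 and 0.59 on that scale. In 15 of the 38 genes (39.5%) all 4 dox libraries lay above all 4 no-dox libraries, against 10.2% of all tested genes, and in 1 (IFI27) all lay below, against 6.87%. With the libraries rescaled by median of ratios, 14 genes rose and 1 fell, while over all genes the calls were 884 higher and 999 lower, against 1180 higher and 726 lower as deposited. The members and the test were chosen with earlier results of these data known.

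**Figure D2:**
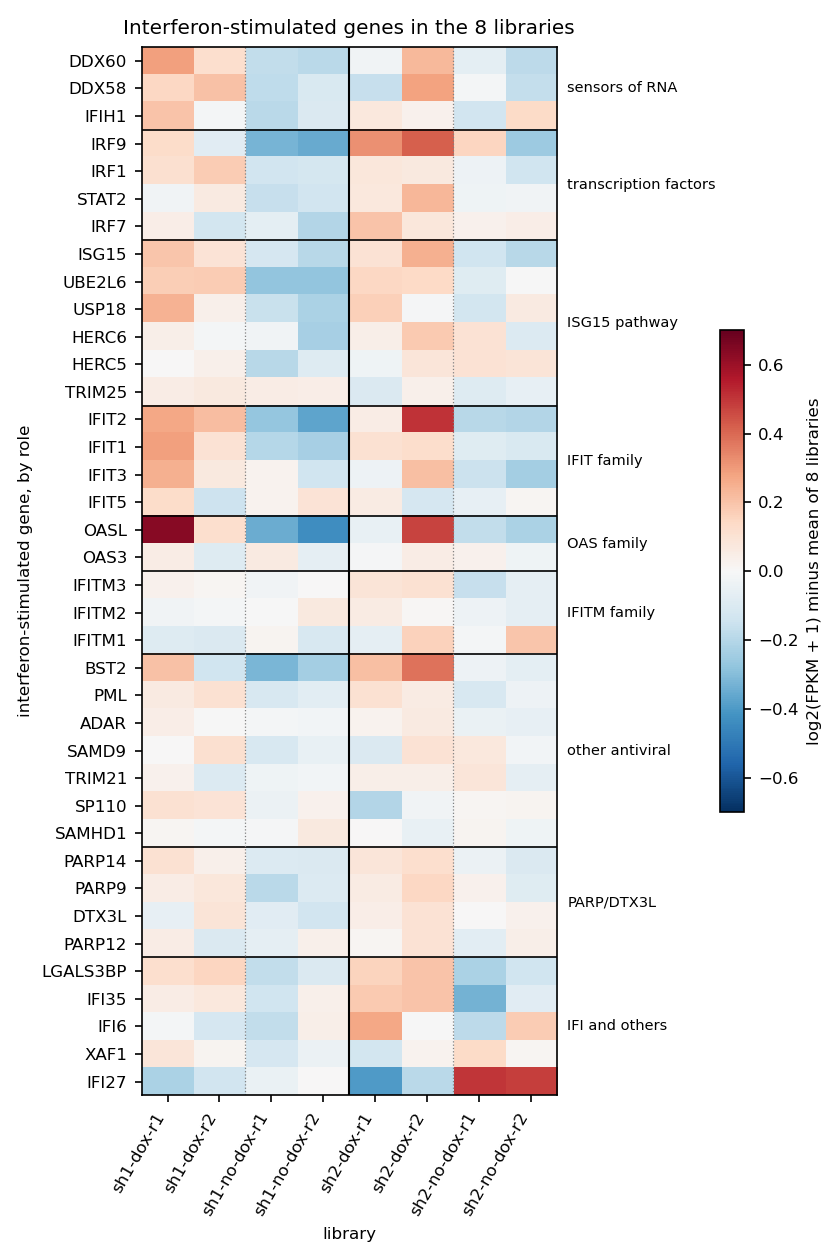
Colour shows log2(FPKM + 1) of each tested gene minus its mean over the 8 libraries, with libraries across and genes down, grouped by role. Most of the 17 genes that rose are red in the dox columns of both lines, IFI27 is the reverse with 2.05 and 2.02 FPKM in the sh2 no-dox libraries, and OAS3, TRIM25 and SAMHD1 stay pale.

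The genes were then read by role, where each count is to be set against the 10.1% of all tested genes called higher and 6.2% called lower. Each role holds few genes. The transcription factors of the pathway rose in 3 of 4 cases. IRF9, the DNA-binding subunit of the complex with STAT2, had 6.89 and 5.83 FPKM in sh1 dox libraries against 4.77 and 4.65 FPKM in sh1 no-dox libraries. In the sh2 line it had 8.02 and 8.67 FPKM with doxycycline against 7.01 and 5.06 FPKM without. IRF9 was thus higher with doxycycline within each line, while the states overlapped across lines. Its mean FPKM was 36.9% higher with doxycycline (log2 change 0.39, SE 0.08, limma adjusted p = 0.0121). IRF1, a factor that activates interferon-stimulated genes directly, had 9.65, 10.1, 9.38 and 9.3 FPKM in dox libraries against 7.96, 8.04, 8.59 and 7.94 FPKM in no-dox libraries (0.22, SE 0.04, adjusted p = 0.00854). STAT2 had 11.14, 11.91, 12 and 13.52 FPKM in dox libraries against 10.02, 10.24, 11.07 and 11.13 FPKM in no-dox libraries, which all but touch across lines (0.18, SE 0.05, adjusted p = 0.0262). IRF7, which amplifies interferon production, had 2.94, 2.49, 3.38 and 3.04 FPKM in dox libraries against 2.65, 2.32, 2.9 and 2.95 FPKM in no-dox libraries and did not pass (0.10, 95% interval -0.05 to 0.24). IRF1 kept its call in each of 17 alternatives. IRF9 (adjusted p of 0.00481 to 0.0672 over 17 alternatives) lost it with no filter on low values and with no term for the line, and STAT2 (0.00975 to 0.0928) lost it in both of these and without sh1 dox repeat 2, sh1 no-dox repeat 1, sh1 no-dox repeat 2, sh2 dox repeat 2, sh2 no-dox repeat 1 or sh2 no-dox repeat 2.

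Of the 3 RNA sensors and relatives 1 rose, too few genes to read the count against the 10.1% of all tested genes. DDX60, a helicase that has been linked to RIG-I signalling, had 3, 2.56, 2.22 and 2.84 FPKM in dox libraries against 1.91, 1.88, 2.12 and 1.89 FPKM in no-dox libraries, with no overlap between the states (log2 change 0.31, SE 0.07, limma adjusted p = 0.0202). DDX58 averaged 3.66 ± 0.593 FPKM with doxycycline and 2.93 ± 0.211 FPKM without (SD, n = 4 per state). Its sh2 dox repeat 1 library, at 2.81 FPKM, lay among the no-dox libraries, and the gene did not pass (0.24, 95% interval 0.04 to 0.43, adjusted p = 0.0933). IFIH1 did not pass either (0.15, 95% interval -0.02 to 0.31). DDX60 (adjusted p of 0.00866 to 0.07 over 16 alternatives) lost its call with no filter on low values and without sh1 dox repeat 1, sh1 no-dox repeat 1, sh1 no-dox repeat 2, sh2 dox repeat 2 or sh2 no-dox repeat 2.

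In the ISG15 system 3 of 6 genes rose, against 10.1% of all tested genes: the modifier, its conjugating enzyme and its protease. ISG15 (Entrez identifier 9636), a ubiquitin-like protein that is attached to newly made proteins, had 94.5 and 88.1 FPKM in sh1 dox libraries against 75.8 and 71.9 FPKM in sh1 no-dox libraries. In the sh2 line it had 88.5 and 97.9 FPKM with doxycycline against 74.6 and 71.8 FPKM without. The no-dox libraries of both lines lay between 71.8 and 75.8 FPKM, and all dox libraries lay well above them. ISG15 was 25.5% higher in mean FPKM, with a 95% interval of the log2 change from 0.23 to 0.41. UBE2L6 (Entrez identifier 9246), the E2 enzyme of ISG15, had 19.4, 19.4, 18.9 and 18.9 FPKM in dox libraries. Its no-dox libraries read 13.9 and 13.9 FPKM in the sh1 line and 16 and 17 FPKM in the sh2 line. The dox libraries of both lines thus read nearly alike, while the no-dox libraries differed between lines. USP18, which removes ISG15 from proteins and dampens receptor signalling, had 6.86, 5.82, 6.46 and 5.62 FPKM in dox libraries against 4.97, 4.71, 5.09 and 5.95 FPKM in no-dox libraries, which overlap (log2 change 0.22, SE 0.07, limma adjusted p = 0.0493). The ISG15 ligase HERC5 had 4.63, 4.75, 4.49 and 4.95 FPKM in dox libraries against 3.9, 4.27, 5.01 and 4.98 FPKM in no-dox libraries and did not pass (0.05, 95% interval -0.07 to 0.16). TRIM25, which also acts on RIG-I, had 49.2, 49.7, 44.2 and 48.5 FPKM in dox libraries against 49.1, 48.9, 44.5 and 45.5 FPKM in no-dox libraries (0.03, 95% interval -0.05 to 0.10). Neither TRIM25 nor the HERC5 relative HERC6 (0.13, 95% interval -0.04 to 0.29) passed. ISG15 and UBE2L6 kept their calls in each of 17 alternatives, whereas USP18 (adjusted p of 0.0356 to 0.168) lost it in 10. These were no filter, quantile normalization, median-of-ratios scaling, no trend in the moderation, no term for the line, and the fits without sh1 dox repeat 1, sh1 no-dox repeat 1, sh1 no-dox repeat 2, sh2 dox repeat 1 or sh2 no-dox repeat 1.

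The IFIT proteins bind viral RNA and block its translation, and their genes lie side by side on chromosome 10. IFIT2 had 1.69, 1.59, 1.32 and 2.17 FPKM in dox libraries against 0.85, 0.73, 0.95 and 0.94 FPKM in no-dox libraries, with no overlap. Its mean FPKM was 95.1% higher with doxycycline (log2 change 0.52, SE 0.09, limma adjusted p = 0.00652). All 4 no-dox libraries lay under 1 FPKM, and the gene passed the filter only through the dox libraries. In the fit with no filter its adjusted p was 0.0347. IFIT1 had 1.91, 1.56, 1.57 and 1.6 FPKM in dox libraries against 1.08, 1.03, 1.25 and 1.22 FPKM in no-dox libraries (0.31, SE 0.07, adjusted p = 0.013). IFIT3, at 2.46, 2.05, 1.84 and 2.37 FPKM in dox libraries against 1.96, 1.64, 1.62 and 1.47 FPKM in no-dox libraries, just missed the threshold (0.25, SE 0.08, adjusted p = 0.0555). IFIT5, the highest of the family here, had 6.24, 5, 5.89 and 5.1 FPKM in dox libraries against 5.75, 6.07, 5.36 and 5.7 FPKM in no-dox libraries (-0.04, 95% interval -0.19 to 0.11). IFIT1 and IFIT2 kept their calls in each of 16 alternatives, and neither was tested with a mean of at least 5 FPKM.

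The OAS enzymes make the messenger that activates RNase L, and OAS1, OAS2 and OAS3 lie together on chromosome 12. OASL, a relative that promotes RIG-I signalling, had 3.71 and 2.28 FPKM in sh1 dox libraries against 1.38 and 1.24 FPKM in sh1 no-dox libraries, and 1.92 and 3.2 FPKM in sh2 dox libraries against 1.68 and 1.59 FPKM in sh2 no-dox libraries. Repeats with doxycycline stood far apart in both lines, yet each lay above all no-dox libraries (log2 change 0.59, SE 0.13, limma adjusted p = 0.0132). OAS3 had 16.2, 14.5, 15.5 and 16.2 FPKM in dox libraries against 16.3, 14.9, 15.9 and 15.3 FPKM in no-dox libraries, with a 95% interval of -0.10 to 0.10 on the log2 scale. OAS2, below the filter, had 0.22, 0.24, 0.27 and 0.17 FPKM in dox libraries against 0.16, 0.16, 0.12 and 0.06 FPKM in no-dox libraries. In a fit with no filter it did not pass (adjusted p = 0.0782), nor did OAS1, at 0.29, 0.32, 0.23 and 0.29 FPKM in dox libraries against 0.03, 0.21, 0.33 and 0.23 FPKM in no-dox libraries (adjusted p = 0.327). OASL (adjusted p of 0.00397 to 0.0732 over 16 alternatives) lost its call with no filter on low values and in no other alternative.

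IFITM proteins sit in endosomal and surface membranes and hinder the entry of viruses. IFITM3 had 381, 377, 398 and 403 FPKM in dox libraries against 367, 374, 334 and 358 FPKM in no-dox libraries (log2 change 0.12, SE 0.03, limma adjusted p = 0.0191). The gap was wide in the sh2 line and narrow in the sh1 line. IFITM2 had 86.6, 87.35, 91.8 and 88.6 FPKM in dox libraries against 87.95, 92.5, 85.7 and 84.1 FPKM in no-dox libraries (0.02, 95% interval -0.05 to 0.08). IFITM1, much lower at 2.12, 2.09, 2.18 and 2.71 FPKM in dox libraries against 2.36, 2.07, 2.29 and 2.79 FPKM in no-dox libraries, did not pass (-0.04, 95% interval -0.21 to 0.12). IFITM2 and IFITM3 are near copies on chromosome 11, and how their shared reads were assigned is not given in the sources used here. IFITM3 (adjusted p of 0.00604 to 0.0846 over 17 alternatives) lost its call with no filter, median-of-ratios scaling, no trend, no term for the line, and without sh1 dox repeat 1, sh1 dox repeat 2, sh1 no-dox repeat 1, sh1 no-dox repeat 2 or sh2 no-dox repeat 1.

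Of 7 tested genes among the other antiviral effectors 2 rose, against 10.1% of all tested genes, and nothing is read from so small a count. BST2 (tetherin), which holds budding virus at the cell surface, had 2.5, 1.76, 2.52 and 2.96 FPKM in dox libraries against 1.43, 1.58, 1.97 and 1.9 FPKM in no-dox libraries. The states overlapped across lines but not within them (log2 change 0.33, SE 0.08, limma adjusted p = 0.023). PML, the scaffold of nuclear bodies, had 14.5, 15, 15 and 14.5 FPKM in dox libraries against 12.8, 13.1, 12.7 and 13.5 FPKM in no-dox libraries (0.17, SE 0.04, adjusted p = 0.0152). ADAR, which edits double-stranded RNA, lay at 68.2 to 71.3 FPKM in dox libraries and at 65.6 to 67.7 FPKM in no-dox libraries. These do not overlap, but the difference was small and did not pass (0.07, 95% interval 0.01 to 0.13, adjusted p = 0.124). The restriction factor SAMHD1, the antiviral factor SAMD9, the antibody receptor TRIM21 and the nuclear body protein SP110 had changes between -0.02 and 0.06 and did not pass. BST2 (adjusted p of 0.0117 to 0.0781 over 16 alternatives) lost its call with no filter, with no term for the line, and without sh1 dox repeat 1, sh1 no-dox repeat 1, sh2 dox repeat 2, sh2 no-dox repeat 1 or sh2 no-dox repeat 2. PML (0.00983 to 0.0657 over 17) lost it without sh1 dox repeat 2, sh1 no-dox repeat 1 or sh2 no-dox repeat 1.

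PARP9 and DTX3L form a complex that modifies histones and STAT signalling, and their genes are read in opposite directions from shared promoter sequence on chromosome 3, where their RefSeq windows have 137 bases in common. PARP9 had 5.46, 5.58, 5.48 and 5.88 FPKM in dox libraries against 4.46, 4.82, 5.34 and 4.87 FPKM in no-dox libraries (log2 change 0.17, SE 0.05, limma adjusted p = 0.0449). DTX3L averaged 6.39 ± 0.369 FPKM with doxycycline and 5.95 ± 0.367 FPKM without (SD, n = 4 per state) and did not pass (0.09, 95% interval -0.02 to 0.20). PARP14, a mono-ADP-ribosyltransferase encoded on the same chromosome, had 5.7, 5.38, 5.59 and 5.74 FPKM in dox libraries against 4.83, 4.8, 5.04 and 4.79 FPKM in no-dox libraries (0.17, SE 0.05, adjusted p = 0.0303). PARP12 did not pass (0.03, 95% interval -0.09 to 0.15). PARP9 (adjusted p of 0.0357 to 0.157 over 17 alternatives) and PARP14 (0.023 to 0.0914) lost their calls without any 1 library other than sh2 dox repeat 1, with no filter and with quantile normalization. PARP9 also lost it with median-of-ratios scaling and with no term for the line.

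LGALS3BP (Entrez identifier 3959), a secreted glycoprotein that binds galectins, had 217 and 222 FPKM in sh1 dox libraries against 177 and 186 FPKM in sh1 no-dox libraries. In the sh2 line it had 222 and 230 FPKM with doxycycline against 171 and 181 FPKM without. Both lines thus read alike in each state, and the gap between the states was far wider than that between repeats. It had the smallest p of the 38 genes (24.4% higher mean FPKM, log2 change 0.31, SE 0.03, limma adjusted p = 2.51e-04) and kept its call in each of 17 alternatives. IFI35, a leucine zipper protein, had 6.15, 6.25, 6.81 and 6.92 FPKM in dox libraries against 5.26, 6.06, 4.47 and 5.52 FPKM in no-dox libraries (0.26, SE 0.06, adjusted p = 0.0222). IFI6 (0.07, 95% interval -0.13 to 0.26) and the pro-apoptotic XAF1 (0.00, 95% interval -0.15 to 0.16) did not pass. IFI44 averaged under 1 FPKM, with 0.73, 0.65, 0.61 and 0.86 FPKM in dox libraries against 0.39, 0.36, 0.52 and 0.46 FPKM in no-dox libraries. It was higher in the fit with no filter (0.26, SE 0.05, adjusted p = 0.0396). IFI35 (0.00766 to 0.0873 over 17 alternatives) lost its call with no filter, with no term for the line, and without sh1 dox repeat 2, sh1 no-dox repeat 1, sh2 dox repeat 2 or sh2 no-dox repeat 1.

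IFI27 (Entrez identifier 3429), a small mitochondrial protein gene that is among the strongest responders to type I interferon in blood, was the 1 gene that fell. It had 0.85 and 0.97 FPKM in sh1 dox libraries against 1.09 and 1.16 FPKM in sh1 no-dox libraries. In the sh2 line it had 0.64 and 0.89 FPKM with doxycycline against 2.05 and 2.02 FPKM without. The sh2 no-dox libraries stood apart from the other 6, which lay between 0.64 and 1.16 FPKM. The averaged mean FPKM fell by 47.0% (log2 change -0.47, 95% interval -0.63 to -0.31). With a mean of 0.838 FPKM in dox libraries and 1.58 FPKM in no-dox libraries, IFI27 passed the filter only through the no-dox libraries of the sh2 line. In the fit with no filter its adjusted p was 0.0124. The call held in each of 16 alternatives, and the gene was not tested with a mean of at least 5 FPKM. Its promoter carries 2 ISRE core matches, as the printed sequence shows.

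**Figure D3:**
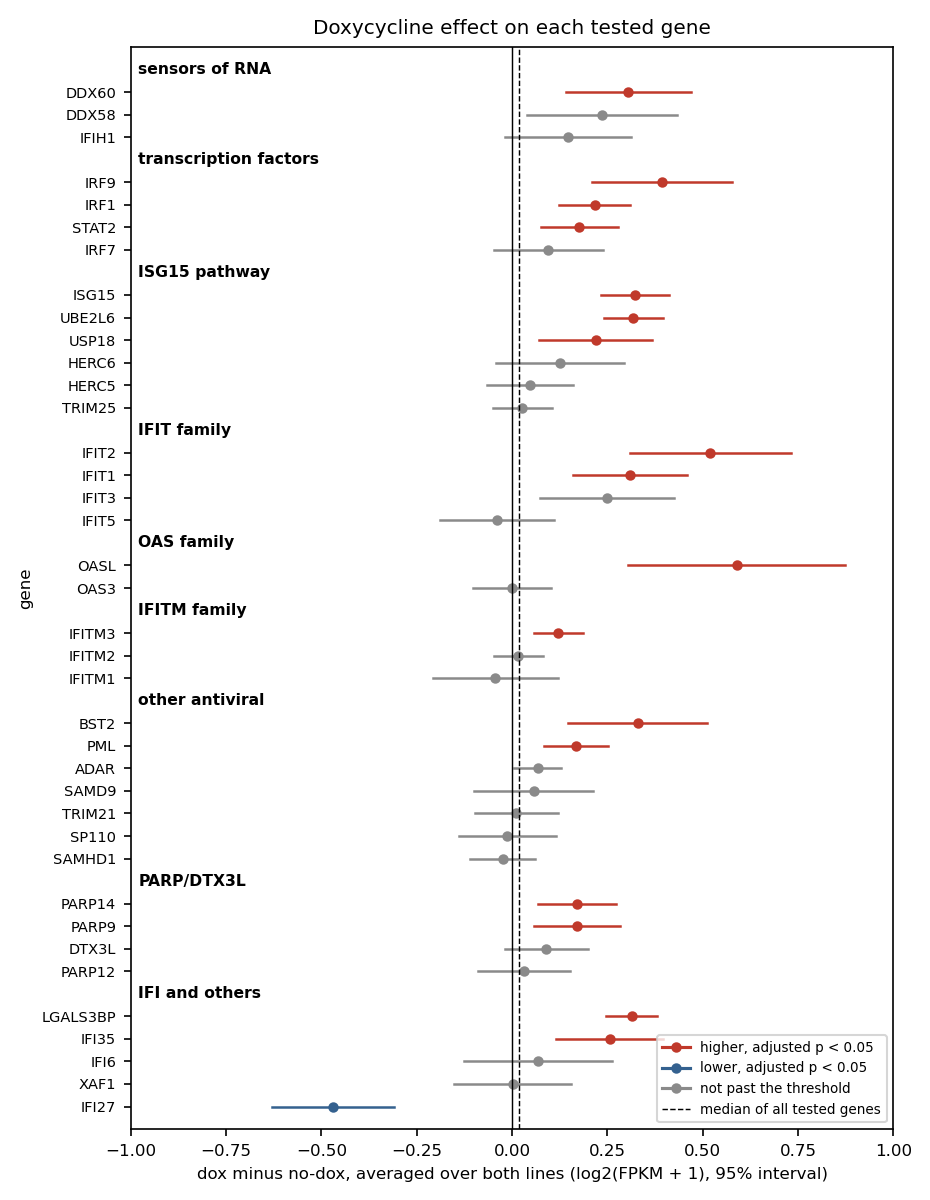
Change with doxycycline of each of the 38 tested genes, averaged over both lines, as points with 95% intervals on log2(FPKM + 1), grouped by role; the dashed line is the median of all tested genes, 0.02. OASL (0.59) and IFIT2 (0.52) have the highest points with wide intervals, LGALS3BP (0.31) and UBE2L6 (0.32) narrow ones, and IFI27 (-0.47) is the 1 blue point.

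Each line was then taken by itself. In the sh1 line 7 of 38 genes rose, against 3.71% of all tested genes (6.27% called in either direction), and by limma 0 fell (0 at an unadjusted p under 0.05), against 2.56% of all. They were UBE2L6, LGALS3BP, ISG15, IRF1, IFIT1, OASL and IFIT2. UBE2L6 changed by 0.45 (SE 0.05, adjusted p = 0.00132), OASL by 0.77 (SE 0.18, adjusted p = 0.0353), IFIT2 by 0.56 (SE 0.13, adjusted p = 0.0371) and IFIT1 by 0.41 (SE 0.09, adjusted p = 0.0333). In the sh2 line 4 rose, against 1.38% of all tested genes, and 1 fell, against 1.15%. Those that rose were LGALS3BP (0.36, SE 0.04, adjusted p = 0.00444), ISG15 (0.34, SE 0.06, adjusted p = 0.0164), IFITM3 (0.21, SE 0.04, adjusted p = 0.0302) and IFI35 (0.40, SE 0.09, adjusted p = 0.0486). IFI27 fell in the sh2 line (-0.79, SE 0.10, adjusted p = 0.00467) and read -0.15 in the sh1 line (SE 0.10, adjusted p = 0.378). IFI27 passed the filter only through its sh2 no-dox libraries and IFIT2 only through its dox libraries, which limits their calls here. LGALS3BP and ISG15 passed in both lines. The share of all tested genes called also moved when 1 library was left out, so such counts do not describe these genes alone. In the sh1 line that share fell without any 1 sh1 library. In the sh2 line it fell without any 1 library other than sh2 dox repeat 1. Leaving out 1 library took the sh1 count to between 1 and 9 and the sh2 count to between 0 and 5. The sh1 count was 2 without sh1 dox repeat 1, 3 without sh1 dox repeat 2, 1 without sh1 no-dox repeat 1 and 2 without sh1 no-dox repeat 2. The sh2 count was 3 without any 1 sh1 library, 2 without sh2 dox repeat 2, 0 without sh2 no-dox repeat 1 and 3 without sh2 no-dox repeat 2.

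The lines share no library, so their changes can be set side by side. The change was above 0 in both lines in 26 of the 38 genes (68.4%), against 42% of all tested genes, and below 0 in both in 4 (10.5%), against 30.4%. Across genes the changes of the lines correlated at r = 0.65 over the 38 genes and at 0.62 over all 11712 tested genes, where genes are not independent and share the libraries of each line. The difference of the effects (sh2 minus sh1) passed for 0 of 38 genes by limma, and for 0% of all genes, with 6 of the 38 at an unadjusted p under 0.05. The smallest p were those of IFI27 (-0.63, 95% interval -0.95 to -0.31, adjusted p = 0.696) and UBE2L6 (-0.26, 95% interval -0.42 to -0.11, adjusted p = 0.855). IFITM3 (0.18, 95% interval 0.05 to 0.31), IFITM2 (0.14, 95% interval 0.01 to 0.27), HERC5 (-0.23, 95% interval -0.46 to -0.01) and IFI35 (0.28, 95% interval 0.00 to 0.56) followed, each with an adjusted p of 0.992. For ISG15 (0.04), LGALS3BP (0.09) and IRF9 (0.06) the estimated difference was small.

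**Figure D4:**
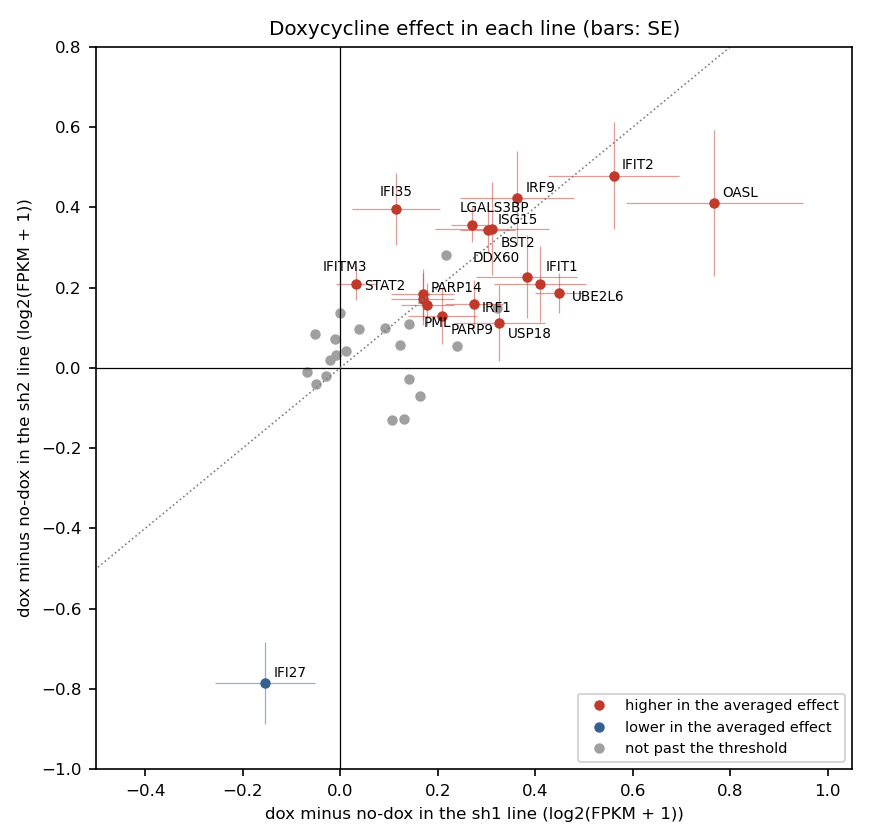
Change with doxycycline in the sh1 line (x axis) and the sh2 line (y axis) on log2(FPKM + 1), 1 point per tested gene, with SE bars for the genes called in the averaged effect and a dotted line of equal change. The 17 genes that rose lie in the upper right, with OASL at 0.77 and 0.41, while IFI27 lies far below the line at -0.15 and -0.79.

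Without doxycycline the lines differed in 1 of the 38 genes (sh2 minus sh1), against 0.828% of all tested genes called higher and 0.623% called lower. This was IFI27, higher in the sh2 line (0.51, SE 0.10, limma adjusted p = 0.0386). The gene passed the filter only through the sh2 no-dox libraries, the group in which it is high, so this call rests partly on how genes were let in. UBE2L6 was next (0.23, SE 0.05, adjusted p = 0.0516), then HERC5, TRIM25 and IFITM3, which did not pass. The IFI27 call (adjusted p of 0.0227 to 0.202 over 15 alternatives) was lost with a pseudocount of 0.1, no filter and quantile normalization. It was also lost without any 1 library other than those of the sh2 dox group. With doxycycline 0 of the 38 genes differed between the lines by limma, against 0.0598% of all genes, 0.0171% called higher and 0.0427% lower, and 3 had an unadjusted p under 0.05. These were IRF9 (0.35, 95% interval 0.09 to 0.61, adjusted p = 0.36), SP110 (-0.22, adjusted p = 0.393), at 2.66 and 3.15 FPKM in sh2 dox libraries against 3.54 and 3.51 FPKM in sh1 dox libraries, and BST2 (0.26, adjusted p = 0.488). IFI27, at 0.85 and 0.97 FPKM in sh1 dox libraries and 0.64 and 0.89 FPKM in sh2 dox libraries, read -0.12 in that comparison (95% interval -0.34 to 0.11). These comparisons and the effects of doxycycline in each line share libraries.

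The genes upstream of this response were read in the same fit of the averaged effect, in which 10.1% of all tested genes were called higher and 6.2% lower. The shares called among the receptors, the genes that restrain the pathway and the sensing genes are near these, or rest on so few genes that nothing is read from them. Of 10 interferon genes 6 were in the table, all under 1 FPKM on average. IFNL1, a type III interferon, read 0.25, 0.19, 0.13 and 0.26 FPKM in dox libraries against 0.06, 0.06, 0 and 0.06 FPKM in no-dox libraries, which do not overlap but lie under the filter. It was named after its values were seen. IFNA1, IFNE, IFNW1, IFNL2 and IFNL3 overlapped between the states, and IFNL3 averaged 0.23 FPKM with doxycycline and 0.243 FPKM without. Among the tested genes, which do not include IFNL1, 10.2% had all dox libraries above all no-dox libraries. No such share was taken for genes under the filter. Of 6 interferon receptor genes 1 rose and 0 fell, namely IFNLR1, the specific chain of the type III receptor, with 6.56 ± 0.412 FPKM in dox libraries and 5.51 ± 0.505 FPKM in no-dox libraries (SD, n = 4 per state; log2 change 0.22, adjusted p = 0.0382). Of 7 tested JAK and STAT genes 0 were called by limma, with 2 at an unadjusted p under 0.05. Of 11 genes that restrain the pathway 2 rose, the phosphatase gene PTPN6 (0.23) and IRF2BP1 (0.19), and the phosphatase gene PTPN1 fell (-0.17). Of 14 tested genes of nucleic acid sensing TMEM173, the adaptor STING, rose (0.24) and the kinase gene TBK1 fell (-0.13). MB21D1, the DNA sensor cGAS, read at most 0.03 FPKM.

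Of 35 other interferon-stimulated genes 34 were in the table and 19 were tested. Of these 4 rose and 0 fell by limma (5 at an unadjusted p under 0.05), against 10.1% and 6.2% of all tested genes. The median log2 change of the 19 was 0.05, against 0.02 over all tested genes, and nothing is read from so small a count. Those that rose were the immunoproteasome subunit PSMB9 (0.27, adjusted p = 0.013), the class I light chain B2M (0.14, adjusted p = 0.0191), the antiviral zinc finger protein ZC3HAV1 (0.20, adjusted p = 0.0199) and the peptide transporter TAP1 (0.13, adjusted p = 0.0293). PSMB9 had 7.8 and 6.53 FPKM in sh1 dox libraries against 4.99 and 5.19 FPKM in sh1 no-dox libraries, and 7.78 and 7.85 FPKM in sh2 dox libraries against 7.53 and 6.73 FPKM in sh2 no-dox libraries. The difference of the effects (sh2 minus sh1) of PSMB9 was -0.30 and did not pass (95% interval -0.56 to -0.04, adjusted p = 0.992). The chemokine genes CXCL10 and CXCL11, which strong interferon signalling induces, read at most 0.13 and 0.03 FPKM, and 15 of the 34 genes were under the filter.

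Within the 38 tested genes a promoter window was at hand for 32. Of all tested genes 10.1% were called higher and 6.2% lower. Of the 20 members with an ISRE core match 8 rose and 1 fell, with a median of 0.11. Of 12 without a match 5 rose and 0 fell by limma, with a median of 0.15. UBE2L6, IRF1, IRF9, STAT2 and IFI35 were those that rose without an ISRE core match in these windows. The GAS core, searched as TTCNNNGAA on both strands, occurred in 12 of the 39 genes (30.8%), against 8.64% of genes in the table, and in 5 of the 12 (BST2, EPSTI1, IFI27, IFITM1 and MX1) a match shared bases with an ISRE core match. IRF1, IRF9 and IFI35 hold a GAS core match. Of the 9 tested members with a GAS core match 6 rose and 1 fell, with a median of 0.22. Of 23 without it 7 rose and 0 fell by limma, with a median of 0.09. The splits by match were not tested. A match is a run of letters and not a measured binding site.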

How the data were processed

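The deposited values are FPKM, which the authors made per library from polyA-selected RNA, per the file headers and the labels. HISAT and Bowtie2 and build hg19 are named in the submitters' processing notes. What each tool did, its version, how FPKM were computed and the read depth: not given in the sources used here. FPKM are not counts, so no count model was fitted. Tests covered genes averaging 1 FPKM or more, run on log2(FPKM + 1) with limma 3.58.1 in R 4.3.3, with 1 mean per group over 8 libraries (4 residual degrees of freedom), a trended moderation, two-sided p-values adjusted by Benjamini-Hochberg over 11712 genes. There were 6 comparisons. This scale understates changes of low genes. Of the gene symbols 27 had become dates and were restored by Entrez identifier. The labels call the repeats independent, and p-values measure the spread between them. One label describes every sample as induced, so groups follow the titles and genotype. The members, lists and tests were chosen with earlier results of these data known. All 46 genes are accounted for. Values by library are given for HOXB8, the 16 genes with the smallest p in the averaged effect, the 5 smallest in each other comparison, the IFITM, IFIT and OAS families and called genes against the majority. Pathway lists give up to 3 genes with the smallest p. Values of PARP9, USP18, IFI44, DDX58, IFNL1, TAP1, MB21D1, CXCL10, CXCL11 and PTPRC were added after they were seen. Promoters are RefSeq windows of GRCh38.p14, matched by Entrez identifier. The fit was tested on simulated data. Figures used Python 3.11.15 and matplotlib 3.10.9.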

Additional observations from a re-analysis of the deposited data

How the results depend on the processing

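The 18 calls of the averaged effect became 15 with quantile normalization or median-of-ratios scaling, 16 with no trend in the moderation, 12 with a mean of at least 5 FPKM (22 genes tested) and 19 with the replicate block, and 18 remained with a pseudocount of 0.1 and with robust moderation. With no filter on low values, which tests more genes, 9 genes were called, 8 of the 18 and IFI44, and with no term for the line 11. The share of all genes called moved as well, from 16.3% in the main fit. It was 15.7% with quantile normalization, 16.1% with median-of-ratios scaling, 12.8% with no trend and 20.5% with a mean of at least 5 FPKM. With the replicate block it was 22.9%, with no filter 5.95% and with no term for the line 9.17%. It also fell without any 1 library other than sh2 dox repeat 1, so the counts of those fits do not describe these genes alone. Leaving out 1 library gave 9 to 19 calls, with 9 without sh1 no-dox repeat 1 and 10 without sh2 no-dox repeat 1. In the sh1 line the 7 calls became 2 with no filter, 4 with a mean of at least 5 FPKM, 4 with no trend, 10 with the replicate block and 9 with only the sh1 libraries, and 1 to 9 without 1 library. In the sh2 line the 5 calls became 2 with no filter, 3 with median-of-ratios scaling, 2 with no trend, 3 with only the sh2 libraries and 7 with the replicate block, and 0 to 5 without 1 library. Between the lines without doxycycline the 1 call became 0 with a pseudocount of 0.1, no filter or quantile normalization, 2 with the replicate block and 0 to 2 without 1 library. The other 2 comparisons had 0 calls by limma in each alternative. Shares of all genes called moved in the single lines too. In the sh1 line they were 6.27% in the main fit, 0.903% with no filter, 3.24% with no trend and 11.6% with the replicate block. In the sh2 line they were 2.54%, 0.204%, 0.768% and 6.3% in the same order. No called gene changed sign. Where a group kept 1 library, that library is assumed to vary like the others. The causes were not tested. Repeats were matched across groups by number alone, and whether repeats of a number share anything else was not tested. Their deviations correlated at -0.03 to 0.22 between groups. The block raised the count of all genes called in the averaged effect from 1180 higher and 726 lower to 1635 higher and 1049 lower. Depth is unknown, so no counting error can be given for genes near 1 FPKM.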
